A study of Rattus norvegicus with 15 samples.

Results

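The zinc finger genes described here are those whose rat symbol begins with Zfp, Znf, Zbtb, Zkscan, Zscan or Klf followed by a digit. The array held a probe for 201 of them among 13832 genes that could be named: 146 Zfp, 33 Zbtb, 13 Klf, 4 Zkscan, 4 Zscan and 1 Znf. A gene was tested when 5 or more of the 15 arrays marked one of its probes as well above background. This left 142 of the 201 zinc finger genes (70.6%) among 8378 tested genes of 13832 (60.6%). They were 110 Zfp, 20 Zbtb, 9 Klf, 2 Zkscan and 1 Zscan gene. The 76 genes well above background on all 15 arrays were 53.5% of those tested, against 64.3% over all tested genes.

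Most of these genes encode DNA-binding proteins in which zinc ions hold together small finger-shaped folds, each with a pair of cysteines and a pair of histidines. Many Zfp and Zkscan proteins carry a KRAB domain that recruits the corepressor Trim28 to silence chromatin. Zbtb proteins carry a BTB domain that binds corepressors, Zscan and Zkscan proteins carry a SCAN domain for pairing, and Klf proteins bind GC-rich and CACCC promoter sequences in epithelial growth, injury responses and metabolism. The symbol rule also takes in genes of another kind. Zfp36, Zfp36l1 and Zfp36l2 encode fingers of a different type that bind AU-rich messenger RNA and hasten its decay, and Zfp622 encodes a factor of ribosome assembly, so the set is broader than transcription factors.

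RNA came from 15 DMBA-induced mammary tumours of female Sprague-Dawley rats, each measured on a one-colour (Cy3) Agilent array, with 5 tumours for each early-life diet. The deficient chow held 3 mg of zinc per kg, the control (adequate) chow 35 mg and the supplemented chow 180 mg. Dams ate it from gestation day 10, and daughters ate it until day 51, when all groups received DMBA (7,12-dimethylbenz[a]anthracene, a mammary carcinogen) at 50 mg/kg by gavage. All groups then ate adequate chow until day 180, so no animal was on a test diet when tumours were taken. The labels call the adequate group a negative control, and a label field that names normal gland at day 21 goes against the tumour labels, which were followed. The labels do not tie tumours to animals or litters, so p-values measure only the spread between these samples, and in whole tumours fewer cells of a type and less RNA per cell cannot be told apart.

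The arrays differed in brightness, with 13854 to 24009 of 43379 spots well above background and 0 saturated. By that count the 3 dimmest arrays were deficient tumour 4 (13854), control tumour 2 (16214) and deficient tumour 1 (16679). A low level of a dim gene in these tumours lies near the background. All 6 tested luminal epithelial markers of 8 listed were well above background on all 15 arrays, and 0 of 6 B and plasma cell markers passed the filter. The 4 tested erythroid markers of 5 had list means of 0.92 to 3.08 in deficient tumours, -1.32 to 1.43 in controls and -1.08 to -0.11 in supplemented tumours, on the log2 scale defined next. The 2 tested adipocyte markers of 7 had list means of -1.99 to 1.35, -1.60 to -0.80 and -1.27 to 1.03. Their part in the zinc finger values was not tested. Deficient tumour 3 had the lowest mean correlation with the other arrays over all tested probes, at 0.9303. Deficient tumours 1 and 4 followed closely at 0.9356 and 0.938, but they were among the 3 dimmest arrays. Deficient tumour 3, with 19256 spots well above background, was not. Among deficient tumours it was highest for all 3 tested T cell markers and all 6 tested macrophage markers. Its list means were 1.90 and 2.59. The highest list means were 1.39 and 2.93 in controls and 2.64 and 2.54 in supplemented tumours. The part of these cells in the Klf values was not tested. For the Klf medians, the medians over all zinc finger genes and some single genes, differences are given with and without deficient tumour 3. For the other genes, differences from deficient tumours are given only with it. Deficient tumour 3 was the highest of all tumours for 29 zinc finger genes (20.4%, against 16.2% of all tested genes) and the lowest for 18 (12.7%, against 13.2%).

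A level here is the log2 signal of a gene's brightest tested probe after subtraction of its array's 75th percentile, and levels are compared between tumours, not between genes. Over the 142 genes, limma called 0 in each of the 3 comparisons of diets at a Benjamini-Hochberg adjusted p under 0.05, and the share called among all 21011 probes was 0% as well. At an unadjusted p under 0.05, 4 were higher and 1 lower in deficient tumours than in controls, where 1.36% and 2.64% of all tested genes were (4% in either direction). Between supplemented tumours and controls the counts were 2 higher (0.847% of all genes) and 0 lower (1.1%), where 1.95% of all genes passed in either direction. Between supplemented and deficient tumours they were 4 higher (3.84%) and 4 lower (2.48%), where 6.33% passed in either direction. Limma's F test over the 3 diets called 0 (3 at an unadjusted p under 0.05, against 3.78% of all genes). The slope over log2 dietary zinc also called 0, with 3 genes higher with more zinc (4.45% of all genes) and 7 lower (2.73%) at an unadjusted p under 0.05. With 5 tumours a diet, 95% intervals reached a median of 0.50 log2 units to either side of a difference.

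The Klf genes had the largest median difference of the 3 prefix groups with at least 5 tested genes, and it rested on 1 tumour. In deficient tumours 8 of 9 Klf genes were higher than in controls, and their median log2 difference was 0.26, beside -0.02 over the Zfp genes, 0.04 over the Zbtb genes and -0.04 over all tested genes. Supplemented minus deficient gave a Klf median of -0.21 with 2 of 9 higher, and supplemented minus control gave 0.01 with 5 of 9 higher. The first 2 comparisons share the deficient tumours. Without deficient tumour 3 the Klf medians were 0.06 (6 of 9 higher) for deficient minus control and 0.03 (5 of 9 higher) for supplemented minus deficient. When each gene was centred on its mean over the 15 tumours, the Klf median was 1.06 in deficient tumour 3 and between -0.26 and 0.08 in the other 14. Deficient tumour 3 held the highest level of 6 of the 9 Klf genes.

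**Figure D1:**
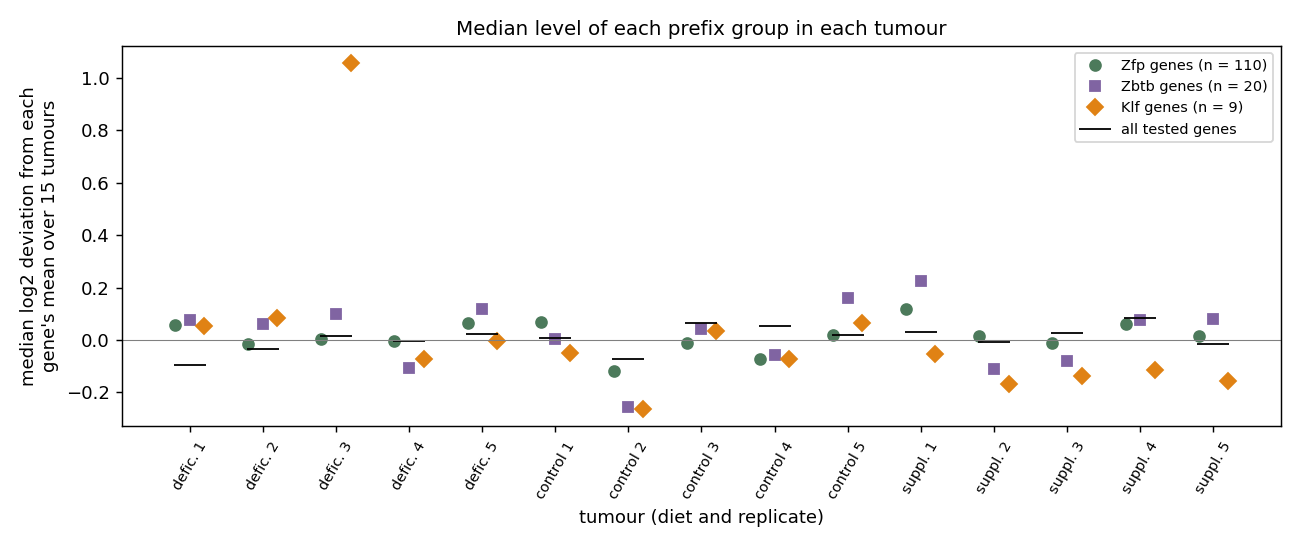
Median log2 deviation of the tested Zfp (circles), Zbtb (squares) and Klf (diamonds) genes from each gene's mean over the 15 tumours, for every tumour; the dashes are the medians over all tested genes. The Klf point of deficient tumour 3 lies at 1.06, and the Klf points of the other 14 tumours lie between -0.26 and 0.08.

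Klf6, an injury-responsive factor that restrains growth in several tissues, stood at 5.16, 4.21, 5.57, 3.97 and 4.36 in deficient tumours 1 to 5. Controls stood at 4.11, 3.64, 4.02, 4.17 and 4.30, and supplemented tumours at 3.99, 3.92, 4.10, 4.12 and 3.93. Deficient tumours 1 and 3 were above every other tumour, deficient tumour 5 lay just above the highest control, and deficient tumours 2 and 4 lay among the controls. The means were 4.66 ± 0.68, 4.05 ± 0.25 and 4.01 ± 0.09 (SD, n = 5 each). The log2 difference between deficient tumours and controls was 0.61 (95% interval 0.06 to 1.16, unadjusted p = 0.0318, adjusted p = 0.986 in limma), or 0.38 without deficient tumour 3. Between supplemented and deficient tumours the Klf6 difference was -0.64 (-1.19 to -0.10, unadjusted p = 0.0242, adjusted p = 0.689 in limma), or -0.41 without that tumour. A second Klf6 probe gave 0.63 and -1.0, and the 2 scan days gave 0.47 and 0.81 for deficient minus control.

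Klf10, Klf15 and Klf13 were also highest of all tumours in deficient tumour 3. Klf10, an early target of TGF-beta, stood at 2.54, 2.87, 3.91, 2.71 and 2.78 in deficient tumours, at 3.11, 2.05, 2.82, 2.98 and 2.21 in controls and at 2.73, 3.11, 2.94, 2.37 and 2.64 in supplemented tumours. Deficient tumour 3 was alone above the rest, and the other deficient tumours lay within the controls' range. The Klf10 difference from control was 0.33 (adjusted p = 0.986 in limma), or 0.09 without tumour 3. Klf15, which acts in glucocorticoid and nutrient responses, stood at -0.64, -0.04, 0.81, -0.30 and 0.17 in deficient tumours, at -0.30, -0.15, -0.18, -0.32 and -0.38 in controls and at -0.08, -0.60, -1.01, 0.13 and -0.95 in supplemented tumours. Controls were tight, and the deficient tumours lay on both sides of them. Supplemented minus deficient was -0.50 for Klf15 (-1.06 to 0.06, adjusted p = 0.718 in limma), or -0.30 without tumour 3, and deficient minus control was 0.26 with 0.52 and -0.11 on the 2 scan days. Klf13, an activator of chemokine genes in T cells, stood at 3.09 in deficient tumour 3 and between 1.60 and 2.40 in the other 14 tumours. Its deficient minus control difference was 0.30, or 0.09 without tumour 3.

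Klf4 and Klf5, which mark differentiating and dividing epithelium, were variable within diets. Klf4 stood at 0.97, 0.14, 1.27, -0.88 and -0.33 in deficient tumours, an SD of 0.89 beside 0.36 in controls and 0.13 in supplemented tumours. The deficient tumours held both its highest and its lowest levels, and its difference from control of 0.18 was -0.08 without tumour 3. Klf5 stood at -0.42, 1.19, 0.72, 0.19 and -0.39 in supplemented tumours and at 0.65, -0.38, 0.52, -0.56 and -0.66 in controls, while the deficient tumours lay between 0.01 and 0.48. Its 2 tested probes differed in sign for deficient minus control (0.32 and -0.12). Klf3, a repressor that recruits Ctbp, was the Klf gene with the lowest difference between supplemented tumours and controls, -0.36 (-0.76 to 0.04, unadjusted p = 0.0718, adjusted p = 1 in limma). Its 5 controls lay between 0.07 and 0.43 and its supplemented tumours between -0.47 and 0.18, so the diets overlapped. Klf9, a partner of the progesterone receptor, differed by 0.17 between deficient tumours and controls and by 0.00 without tumour 3. Klf16 differed by 0.04, 0.07 and 0.03 in the 3 comparisons, with all tumours between 2.42 and 2.97.

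**Figure D2:**
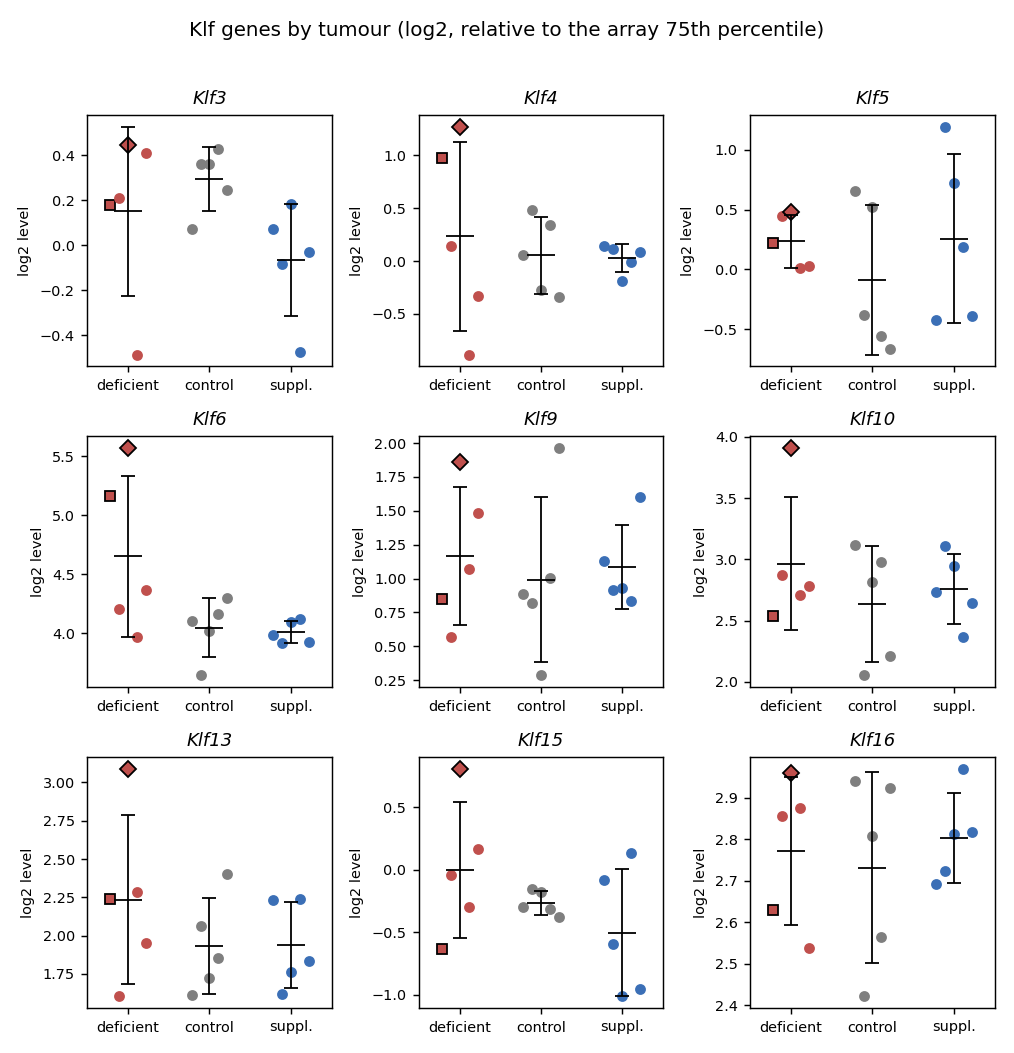
Levels of the 9 tested Klf genes in each tumour (log2, array 75th percentile subtracted) by diet; dashes and bars are the mean ± SD of 5 tumours, the outlined diamond is deficient tumour 3 and the outlined square deficient tumour 1. In the Klf10 panel the diamond at 3.91 lies above all other tumours, the highest of which is at 3.11.

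The RNA-binding genes were led by different tumours. Zfp36l2, which like its relatives promotes decay of growth and cytokine messages, stood at 3.25, 3.21, 4.46, 3.70 and 3.55 in deficient tumours, at 3.38, 2.87, 2.82, 3.07 and 3.57 in controls and at 3.34, 3.11, 2.77, 3.61 and 3.02 in supplemented tumours. Again deficient tumour 3 was alone at the top, with deficient tumour 4 next, and the remaining deficient levels lay within the other diets. Deficient minus control was 0.49 (-0.02 to 1.01, unadjusted p = 0.0604, adjusted p = 0.986 in limma), or 0.29 without tumour 3, and a second Zfp36l2 probe gave -0.07. Zfp36, the best studied of the 3 genes, stood at 0.19, -0.47, -1.55, -1.41 and -1.42 in deficient tumours, against -1.81 to -0.99 in controls and -1.53 to -0.52 in supplemented tumours. Here deficient tumours 1 and 2 were high and tumour 3 was among the low ones, and the difference from control of 0.31 was 0.03 without deficient tumour 1. Zfp36l1 lay between 5.41 and 6.50 over all tumours and differed by 0.15, 0.34 and 0.20.

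Immediate early genes, which switch on within minutes of a stimulus or of tissue handling and often move with Klf4, Klf6, Klf10 and Zfp36, were read beside these values. Their 13 tested members of 20 listed had list means of 2.34 to 3.18 in deficient tumours, 2.37 to 2.75 in controls and 2.28 to 2.81 in supplemented tumours, and 0 were called. The list mean was highest of all 15 tumours in deficient tumour 1, at 3.18, and next highest in deficient tumour 3, at 2.84. Supplemented tumour 3 followed closely at 2.81, and its Klf median was -0.14. Deficient tumour 1 held the highest level of 5 of the 13 genes and the lowest of 0, and deficient tumour 3 the highest of 3 and the lowest of 1. These 2 tumours also had the highest Klf6 levels. The genes differed among themselves. Jun, Junb and Myc were highest of all tumours in deficient tumour 3, at 4.50, 0.60 and 3.48. Fos stood at 4.82 in deficient tumour 1 and at 1.94 in deficient tumour 3. Egr2 was lowest of all tumours in deficient tumour 3, at 1.41. It was the only tested gene of the list with an unadjusted p under 0.05 in a comparison. Egr2 differed by -0.78 between deficient tumours and controls (unadjusted p = 0.0252, adjusted p = 0.986 in limma), where 2.64% of all tested genes were lower at that threshold. The part of these genes in the Klf values was not tested.

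Promoter sequence was set beside these values for the genes that had a window in the RefSeq table of rat assembly GRCr8. Such a window holds 250 bases before and 50 after the start, and 115 of the 142 tested zinc finger genes matched one by symbol. A total of 3 motifs was searched on both strands: the GC box GGGCGG, bound by Sp and Klf factors; the metal response element core TGCACNC or TGCGCNC, bound by the zinc sensor Mtf1; and the CACCC box CCACACCC. A GC box lay in 43.5% of the 115 windows and in 34.9% of all 27457 windows, the metal response core in 26.1% and 25.0%, and the CACCC box in 5.22% and 3.23%. The median GC content was 57.7% against 52.3% over all windows, with a median of 18 against 7 CpG pairs. The 27457 windows were not limited to tested genes or to genes on the array. These contrasts therefore do not set zinc finger genes apart from other tested genes. The 250 bases before the start are shown for Klf6 and Zfp36l2, which deficient tumour 3 led, for Zfp36, which it did not, and for Klf4, whose window holds a metal response core. Capitals mark matches to the GC box or the metal response core, and a match is a description of letters, not a binding site.
Klf6 (chr17:69458479-69458728, minus strand): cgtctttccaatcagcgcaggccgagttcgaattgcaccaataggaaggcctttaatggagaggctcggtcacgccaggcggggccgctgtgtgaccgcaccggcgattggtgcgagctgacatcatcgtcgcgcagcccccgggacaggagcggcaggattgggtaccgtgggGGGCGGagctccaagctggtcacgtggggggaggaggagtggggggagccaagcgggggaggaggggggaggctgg
Zfp36l2 (chr6:16242372-16242621, plus strand): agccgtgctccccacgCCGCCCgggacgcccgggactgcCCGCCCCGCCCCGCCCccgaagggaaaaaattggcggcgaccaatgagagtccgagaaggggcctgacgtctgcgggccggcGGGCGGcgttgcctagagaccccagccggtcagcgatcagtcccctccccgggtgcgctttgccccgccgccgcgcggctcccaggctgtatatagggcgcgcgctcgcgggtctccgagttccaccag
Klf4 (chr5:75078593-75078842, minus strand): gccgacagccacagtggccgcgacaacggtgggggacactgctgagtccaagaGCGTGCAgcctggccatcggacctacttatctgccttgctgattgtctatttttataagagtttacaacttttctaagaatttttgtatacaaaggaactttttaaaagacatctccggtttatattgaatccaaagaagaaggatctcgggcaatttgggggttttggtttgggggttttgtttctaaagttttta
Zfp36 (chr1:92799109-92799358, minus strand): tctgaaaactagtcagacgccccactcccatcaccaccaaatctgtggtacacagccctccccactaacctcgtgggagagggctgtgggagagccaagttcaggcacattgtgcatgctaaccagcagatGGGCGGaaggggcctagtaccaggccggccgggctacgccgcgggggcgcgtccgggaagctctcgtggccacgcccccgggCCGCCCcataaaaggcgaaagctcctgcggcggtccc

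The Klf6 stretch holds 1 GC box and those of Zfp36l2 and Zfp36 hold 5 and 2. The Klf4 stretch holds 1 metal response core on the reverse strand. Its GC content was 43.2%, where the median over the 6 Klf windows of 300 bases was 65.0%. Whether transcription of Klf4 begins at the annotated start was not tested, so the stretch may not be promoter sequence. The 30 genes with a metal response core had median log2 differences of 0.06 between deficient tumours and controls, 0.08 between supplemented tumours and controls and 0.05 between supplemented and deficient tumours, and the 85 without had -0.0047, 0.06 and 0.01. The 50 genes with a GC box had medians of -0.04, 0.03 and 0.01, and the 65 without had 0.06, 0.10 and 0.06. The 6 genes with a CACCC box had medians of -0.03, -0.13 and -0.13, and the 109 without had 0.02, 0.08 and 0.04. No test was made of these splits. Mtf1 itself, a C2H2 factor outside the symbol rule, differed by 0.65 between deficient tumours and controls (-0.63 to 1.92, adjusted p = 0.986 in limma), with deficient tumours spread from -2.44 to 1.74.

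Among the Zbtb genes, Zbtb8a and Zbtb1 had the smallest p between supplemented and deficient tumours, in opposite directions. Zbtb8a, a BTB zinc finger gene, stood at 1.66, 1.06, 1.71, 1.01 and 1.35 in deficient tumours, at 1.12, 0.54, 0.85, 0.99 and 1.18 in controls and at 1.1, 0.66, 0.95, 0.60 and 0.57 in supplemented tumours. Deficient tumours 1, 3 and 5 were above all others, and the lowest 2 overlapped with both other diets. Supplemented minus deficient was -0.58 (-0.98 to -0.18, unadjusted p = 0.00723, adjusted p = 0.662 in limma), with -0.77 and -0.46 on the 2 scan days. Deficient minus control was 0.42 (unadjusted p = 0.0413, adjusted p = 0.986 in limma), or 0.24 with normexp background correction. Normexp adds an offset to every signal, which by itself shrinks differences of dim genes here and below. Zbtb1, a repressor needed for lymphocyte development, stood at -1.04, -0.42, -0.72, -1.41 and -0.76 in deficient tumours, at -0.37, -0.85, -0.51, -0.79 and -0.43 in controls and at 0.10, -0.54, -0.52, -0.12 and -0.26 in supplemented tumours. Deficient tumour 2 lay inside the supplemented range and the other deficient tumours below it. The Zbtb1 difference was 0.60 (0.18 to 1.02, unadjusted p = 0.00792, adjusted p = 0.662 in limma); normexp gave 0.23 and the deposited values gave 0.29.

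The other Zbtb genes set out by name showed no ordered pattern over the diets. Zbtb10, a repressor of Sp factor genes, was higher in deficient tumours than in controls by 0.44 (unadjusted p = 0.0471, adjusted p = 0.986 in limma). Its deficient levels ran from -0.22 to 0.73 and its control levels from -0.49 to -0.07, so the diets overlapped, and the difference was 0.20 with normexp. Zbtb7a, a repressor of fetal globin genes, had means of 4.31 ± 0.24, 4.32 ± 0.26 and 4.32 ± 0.07 (SD, n = 5 each), and its supplemented minus deficient difference of 0.00 had a 95% interval from -0.34 to 0.35. Zbtb20, a developmental repressor, differed by -0.03, -0.10 and -0.07. Zbtb33, the methyl-CpG binding factor Kaiso, cleared background in 3 tumours per diet and differed by 0.38, 0.37 and -0.01. Zbtb43 was among the genes with the largest spread, from 1.51 to 3.49, with its 5 supplemented tumours between 2.29 and 2.78. Zbtb40 had the largest difference of the Zbtb genes between supplemented tumours and controls, 0.74, with an unadjusted p of 0.263 (adjusted p = 1 in limma).

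Of the Zfp genes, Zfp217 and Zfp622 were the only zinc finger genes whose tumours did not overlap in a comparison of diets. Zfp217, a breast cancer oncogene whose protein works with Ctbp repressor complexes, stood at 0.31, -0.35, -0.47, -0.34 and -0.45 in deficient tumours and at -0.48, -0.65, -0.56, -1.07 and -0.84 in controls. Every deficient tumour was above every control, the closest pair standing at -0.47 and -0.48, and deficient tumour 1 was far above the rest. The difference was 0.46 (-0.01 to 0.93, unadjusted p = 0.0523, adjusted p = 0.986 in limma), and a second probe gave 0.34. Genes without overlap in that direction were 0.119% of all tested genes (0.442% in either direction), so a single gene of 142 cannot be read as a property of the set. The supplemented tumours spread from -1.24 to -0.17, across both other diets, and supplemented minus deficient was -0.47 (unadjusted p = 0.0495), or -0.08 with normexp.

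Zfp622, the ribosome assembly factor, stood at 0.00, 0.31, 0.38, 0.30 and 0.42 in deficient tumours and at 0.70, 0.54, 0.46, 0.72 and 0.79 in supplemented tumours. All supplemented tumours were above all deficient ones, as in 1.29% of all tested genes (1.58% without overlap in either direction). Controls, at 0.36, -0.12, 0.67, 0.58 and 0.28, overlapped with both. The difference was 0.36 (0.01 to 0.71, unadjusted p = 0.0434, adjusted p = 0.699 in limma), 0.39 and 0.41 on the 2 scan days and 0.10 with normexp. Between supplemented tumours and controls 0 zinc finger genes were without overlap, against 0.358% of all tested genes.

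**Figure D3:**
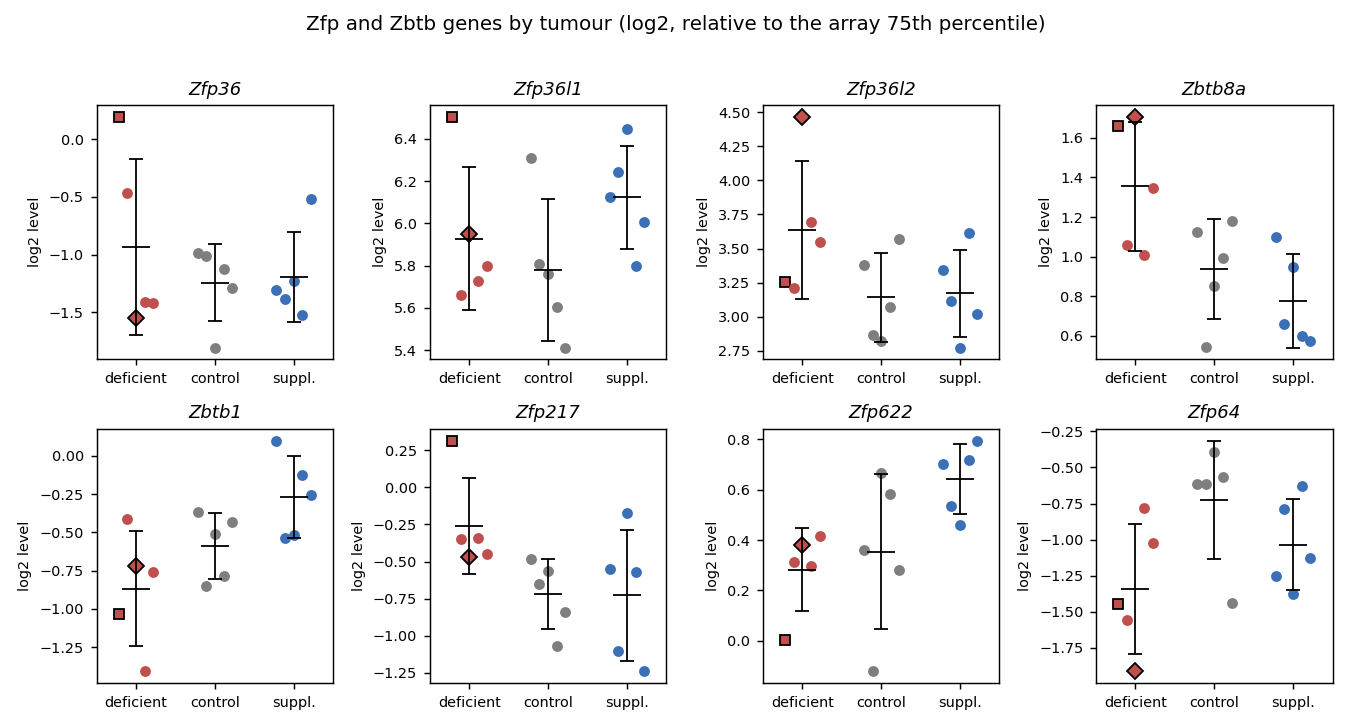
Levels of 8 Zfp and Zbtb genes in each tumour (log2, array 75th percentile subtracted) by diet, with the mean ± SD of 5 tumours; the outlined diamond is deficient tumour 3 and the outlined square deficient tumour 1. Zfp217 levels of deficient tumours, from -0.47 up, lie above those of controls, and Zfp622 levels of supplemented tumours, from 0.46 up, lie above those of deficient tumours.

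The other Zfp genes with the smallest p between deficient tumours and controls were not well above background on every array. Zfp64 stood at -1.44, -1.56, -1.91, -0.78 and -1.02 in deficient tumours and at -0.61, -0.61, -0.39, -0.57 and -1.44 in controls. It was lower in deficient tumours apart from control tumour 5, which was low as well, and it cleared background in 3 deficient and 5 control tumours. The difference was -0.62 (-1.14 to -0.10, unadjusted p = 0.0224, adjusted p = 0.986 in limma) and -0.26 with normexp. Zfp280d was higher by 0.44 (unadjusted p = 0.0244, adjusted p = 0.986 in limma), but its other probes gave -0.23 to 0.31. Zfp142 differed by -0.43, or -0.20 without deficient tumour 3, and Zfp354c by -0.40, or -0.23 without it. Zfp672 differed by -0.59, or -0.26 without deficient tumour 1, and a second probe gave 0.14.

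Between supplemented tumours and controls, Zfp54 and Zfp281 had the smallest p. Zfp281, a factor of pluripotent cells, stood at 1.15, 0.68, 0.49, 0.62 and 1.01 in supplemented tumours and at 0.54, 0.43, -0.21, 0.39 and 0.50 in controls. Control tumour 3 was far below the others, and the remaining controls reached the lower supplemented levels. The difference was 0.46 (0.04 to 0.88, unadjusted p = 0.0333, adjusted p = 1 in limma), or 0.18 with normexp, which moves the median over all tested genes by -0.10 in this comparison. Zfp54 differed by 0.73 (unadjusted p = 0.0329, adjusted p = 1 in limma), or 0.42 without control tumour 2, which stood at -2.69 on a dim array. Zfp455l1, whose near copy Zfp455 may share its signal, and Zfp347 differed by 0.45 each, and Zfp347 by 0.06 with normexp. Lower were Zfp365, a gene tied to genome stability, by -0.48 (adjusted p = 1 in limma), Zfp608 by -0.53 and Zfp354c by -0.36. The sign of Zfp608 and Zfp354c turned with normexp, to 0.20 and 0.16, and both were well above background in 3 or 4 tumours of either diet.

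Between supplemented and deficient tumours, the Zfp gene with the highest difference was Zfp672, at 0.85 (0.08 to 1.63, unadjusted p = 0.0327, adjusted p = 0.697 in limma). It stood at -3.09, -1.42, -0.79, -2.14 and -1.30 in deficient tumours and between -1.15 and -0.63 in supplemented ones. Deficient tumours 1 and 4, both among the 3 dimmest arrays, were low, and tumour 3 was among the supplemented levels. Without deficient tumour 1 the difference was 0.52, with normexp it was 0.27, and a second probe gave -0.19. Zfp655 differed by 0.58 (unadjusted p = 0.0236, adjusted p = 0.689 in limma), or 0.35 without deficient tumour 4, which stood at -2.56 on a dim array. Zfp395, a factor induced by hypoxia, was lower in supplemented tumours by -0.54 (unadjusted p = 0.0347, adjusted p = 0.699 in limma), with levels of -1.40 to -0.42 against -0.50 to 0.13. Only the lowest deficient tumour lay inside the supplemented range, and the difference was -0.12 with normexp. Erythroid markers also had a median of -2.00 in this comparison, with 0 of 4 higher, and their part in these values was not tested.

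Several other genes bear on breast tissue or varied most. Zfp703, a luminal breast cancer oncogene, differed by -0.25, -0.03 and 0.22, with controls from -0.70 to 0.41 covering every diet's mean. Zfp668 spread from -1.35 to 0.47, both ends in deficient tumours, and Zfp575 from 1.45 to 3.27, both ends in controls, with differences of -0.01 and -0.13 between deficient tumours and controls. The SCAN genes were few. Zkscan3, a repressor of autophagy genes, differed by 0.09, -0.11 and -0.20, Zkscan5 by -0.08, -0.15 and -0.08, and Zscan21 by -0.16, 0.15 and 0.31, well above background on 9 arrays.

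**Figure D4:**
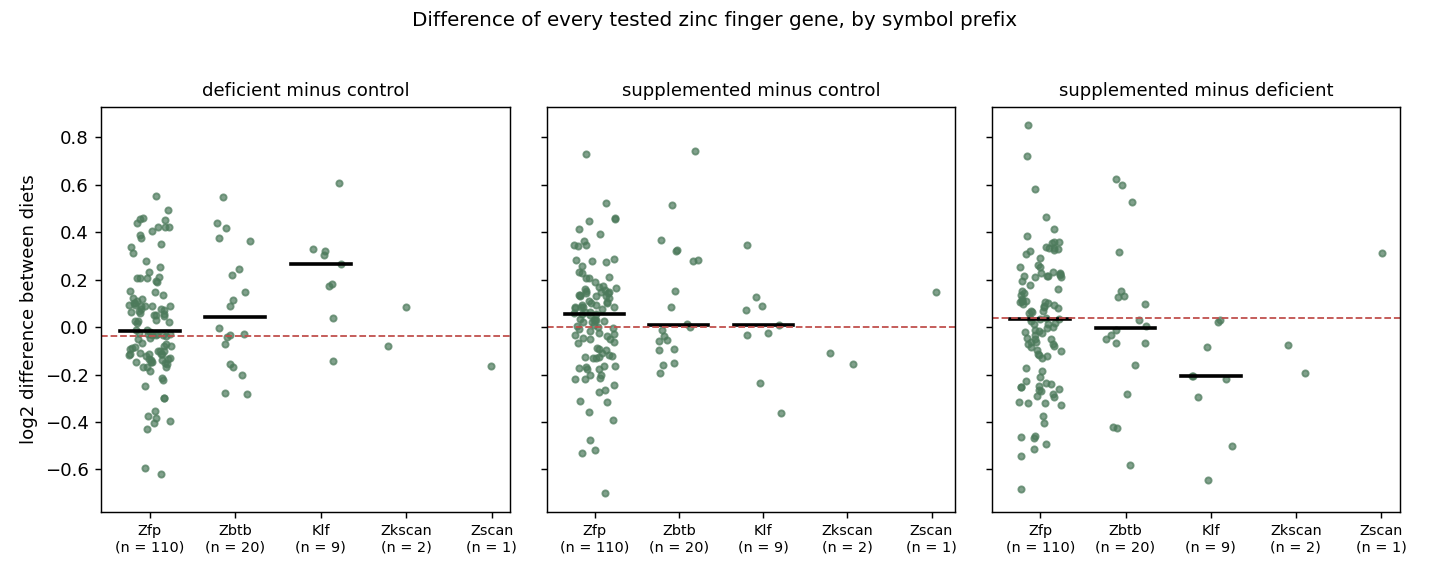
Log2 difference of each of the 142 tested zinc finger genes in the 3 comparisons of diets, by symbol prefix; black bars are medians of groups with at least 5 genes and the dashed line is the median over all 8378 tested genes. Zfp and Zbtb genes spread on both sides of the dashed line, and the Klf bar lies at 0.26, 0.01 and -0.21 from left to right.

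Over all 142 genes the median log2 differences were 0.02 between deficient tumours and controls, 0.03 between supplemented tumours and controls and 0.01 between supplemented and deficient tumours, beside -0.04, 0.00 and 0.04 over all tested genes. Without deficient tumour 3 the medians that use it were 0.01 and 0.03. The genes that were higher numbered 72, 82 and 73 of 142. By prefix, the Zfp medians were -0.02, 0.05 and 0.03 and the Zbtb medians 0.04, 0.01 and -0.0032. The median SD over the 15 tumours was 0.45 for Klf, 0.38 for Zfp and 0.36 for Zbtb genes, beside 0.36 for all tested genes. Of the 33 zinc finger genes with several tested probes, 16, 15 and 11 had probes that differed in sign in the 3 comparisons.

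Partners of these proteins were described from lists of genes outside the symbol rule. Of the KRAB and SCAN corepressors, 10 of 18 were tested and 0 were called, with median differences of -0.01, -0.04 and 0.01; Trim28 itself differed by -0.18, 0.04 and 0.22. Of the BTB corepressors, 10 of 15 were tested and 0 called, with medians of 0.05, -0.11 and -0.16. The 8 tested of 16 Klf partners and Sp relatives had medians of -0.02, 0.05 and 0.07, and 26 tested of 60 other C2H2 factors had 0.07, -0.04 and -0.05, with 0 called in either list.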

How the data were processed

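RNA of 15 mammary tumours (3 diets, 5 each, 200 ng of total RNA) was measured on one-colour Agilent rat arrays. The deposited scanner files hold linear spot intensity from which Agilent Feature Extraction had removed background and a spatial trend, per the file headers, which give version 11.5.1.1, where the submitters' notes give 15.5. The authors also deposited log2 values whose normalization is not given in the sources used here, and these were an alternative. Levels were log2 processed intensity minus the 75th percentile of its array. The filter for probes well above background (5 or more of 15 arrays) left 21011, and the brightest tested probe stood for a gene. Probes were named through a RefSeq table of GRCr8 by accession, which matched 42.7% of 41012.

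Limma 3.58.1 in R 4.3.3 fitted the 3 diets in 1 model over all tested probes, with two-sided tests, Benjamini-Hochberg adjustment and a threshold of 0.05. It was also run on simulated data with log2 changes larger than any zinc finger difference given here. That run does not cover differences of the size reported. The zinc finger genes, the gene lists and the tests were chosen with earlier results of these data known. Named were the 4 genes with the smallest unadjusted p in each direction of each comparison, all tested Klf, Zkscan and Zscan genes, 10 genes listed by name (where tested), and the 5 genes with the largest SD among those well above background on all arrays. Zbtb40, Mtf1, Egr2, Fos, Jun, Junb, Myc and Trim28 were added after their values were seen. Alternatives were normexp (offset 50), quantile scaling, other percentile and filter rules, the deposited values, blocks for slide, scan day and replicate number, brightness as a covariate, and arrays left out. Normexp used the median spot signal, not the mean signal that was planned. Each of the 4 slides held all 3 diets. Same-numbered tumours did not pair: 6 of 15 pairs of their deviations correlated above 0.1 (range -0.28 to 0.22). A planned count of fingers per protein was not made.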

Additional observations from a re-analysis of the deposited data

Results flagged for a closer look

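Of 123 groups of 5 tumours examined for a single far tumour, 8 held one by Dixon's 95% criterion, and chance flags about 1 in 20 groups. That rate holds for independent groups chosen without sight of their values. Here genes were named in part by their values and the Klf median reuses Klf genes, so the rate is no yardstick. Deficient tumour 3 accounts for 2 of the 8: the Klf median of 1.06, with the nearest deficient tumour at 0.08, and the Klf10 level of 3.91, with the nearest at 2.87. Deficient tumour 1 was far from its diet for Zfp217, at 0.31 with the nearest at -0.34, and for Zfp622, at 0.00 with the nearest at 0.30. Deficient tumour 4 was low for Klf3, at -0.49. Control tumour 3 was low for Zfp281, at -0.21, and control tumour 5 for Zfp64, at -1.44. Supplemented tumour 3 was low for Zbtb43, at 2.29 with the nearest at 2.70.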

How the results depend on the processing

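Under each of the alternatives run, limma called 0 zinc finger genes in every comparison. Over the whole table, leaving out supplemented replicate 1 gave 1 called probe for supplemented minus deficient and 1 for the slope. Neither was the brightest probe that stood for a zinc finger gene. Calls at further probes of the zinc finger genes were not counted. Over the 8 genes named per comparison by smallest p, the lowest adjusted p over all alternatives was 0.833, 0.332 and 0.435 (deficient against control, supplemented against control, supplemented against deficient), and 2 of 212 values turned sign, both in supplemented minus control (Zfp608 and Zfp354c with normexp). The median over the tested zinc finger genes for supplemented minus deficient was -0.063 with no filter on dim probes (201 genes), against 0.015. With the replicate block, which assumes a pairing that the tumours did not show, 0 were called and the medians were 0.02, 0.03 and 0.01. The Klf median for deficient minus control, added after seeing the data, ran from 0.06 (without deficient replicate 3) to 0.34; normexp gave 0.09 and the deposited values 0.15. The Klf median for supplemented minus control was -0.21 with normexp, with 1 of 9 higher. Normexp and the deposited values reduced the differences of most dim genes. The normexp offset of 50 was added to linear signals, where the 75th percentile of processed signal was 50.7 to 177 over the arrays. An offset of that size shrinks log2 differences of dim genes by itself. A smaller difference with normexp is therefore no separate check of these genes. The number of arrays limits precision, and genes near background have no reliable size of difference.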
